A study of Mus musculus with 9 samples.

Results

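The regions described here are the intronic open-chromatin regions that lie deep inside very long genes. Peaks on chromosomes 1 to 19 from all 9 libraries were merged wherever they overlapped or touched, and a merged region was kept when at least 2 of the 3 libraries of any line had a peak in it. A kept region was a member when it lay wholly within the body of a protein-coding gene of 200 kb or longer (GENCODE release M21, build mm10), overlapped no annotated exon and was more than 3 kb from any annotated start site. Of 95142 kept regions, 10648 (11.2%) were members. They lay in 872 of the 953 protein-coding genes of that length, which are called host genes below.

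Chromatin accessibility was measured by ATAC-seq, in which a transposase cuts and tags open DNA, in C3H/10T1/2 (CCL-226) mouse mesenchymal progenitor cells (MPCs). The control line, WT, had been through the same procedure with an empty Cas9 vector, and the lines B10 and G7 were Atrx knockout (KO) clones made with Cas9. Each line had 3 libraries, numbered 1 to 3. Each line descends from 1 cell population or clone, so the effect of the knockout within a clone and the clone's own history cannot be told apart, and p-values measure only the spread between these libraries. The number of peaks on chromosomes 1 to 19 was 76479 to 79534 in WT, 79489 to 86650 in B10 and 74643 to 77706 in G7, and read depth is unknown. The start sites of 11 of 14 mesenchymal marker genes had a peak within 1 kb in all 9 libraries, and Thy1 and Nt5e had none there. Of the 21 marker genes of other cell types, 13 had no such peak in any library, among them Ptprc, Cdh1, Epcam, Pou5f1 and Myod1, while the endothelial gene Tek had one in 9 libraries, the immune gene Cd68 in 8, and Pecam1, Krt14 and Snap25 in 5 each. Atrx, a chromatin remodeller of the SWI/SNF-like family, had a peak over its start site in all 9 libraries, which is no check of the edit.

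Introns of long genes hold many of the enhancers, silencers and alternative promoters of vertebrate genomes, and a nucleosome-depleted site there marks a place where DNA-binding proteins can sit. Very long genes are over-represented among genes for neuronal adhesion, synapses and ion channels, and also include developmental transcription factors and cytoskeletal regulators. ATRX works with the histone chaperone DAXX to deposit the variant histone H3.3 in silent chromatin, and AP-1, a dimer of FOS and JUN proteins, is among the factors that most often occupy distal open sites in fibroblast-like cells.

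The windows below are 201 bases centred on the summit of the highest-ranked peak, shown as examples of regions with a peak in KO or WT libraries alone, with 1 stronger and 1 weaker region beside them. They were read from the RefSeq copy of the mouse genome (GRCm38.p6, the same assembly as mm10) on the plus strand. Capitals mark the letters of any of 7 motifs searched on both strands: AP-1 (TGACTCA or TGAGTCA), TEAD (GGAATG), RUNX (TGTGGTT), SOX (CCTTTGT), NFI (TTGGCA), C/EBP (TTGCGCAA) and a TWIST E-box (CAGATG). The first 4 windows were open in every KO library and none in WT, the next 3 in all 3 WT libraries and in no KO library, and the last 2 were stronger or weaker in both clones with a peak throughout.
Fam19a2, chr10:123420375-123420575: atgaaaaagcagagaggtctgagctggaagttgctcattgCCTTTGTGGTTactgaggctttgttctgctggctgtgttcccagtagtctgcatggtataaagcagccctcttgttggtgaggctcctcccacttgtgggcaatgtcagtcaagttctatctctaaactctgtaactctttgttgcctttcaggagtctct
Sorcs3, chr19:48585098-48585298: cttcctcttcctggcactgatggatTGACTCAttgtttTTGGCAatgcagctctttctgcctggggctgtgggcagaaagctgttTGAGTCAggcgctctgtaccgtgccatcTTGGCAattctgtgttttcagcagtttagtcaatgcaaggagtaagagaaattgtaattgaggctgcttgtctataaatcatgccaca
Gnaq, chr19:16366570-16366770: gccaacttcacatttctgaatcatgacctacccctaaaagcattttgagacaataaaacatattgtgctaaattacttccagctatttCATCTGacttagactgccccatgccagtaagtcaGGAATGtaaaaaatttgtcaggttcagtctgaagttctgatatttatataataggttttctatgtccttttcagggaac
Tenm3, chr8:48704534-48704734: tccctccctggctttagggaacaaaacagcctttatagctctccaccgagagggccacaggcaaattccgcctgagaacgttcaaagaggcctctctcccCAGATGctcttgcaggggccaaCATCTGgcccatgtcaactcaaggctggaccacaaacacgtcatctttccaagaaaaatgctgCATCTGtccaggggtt
Asap2, chr12:21264396-21264596: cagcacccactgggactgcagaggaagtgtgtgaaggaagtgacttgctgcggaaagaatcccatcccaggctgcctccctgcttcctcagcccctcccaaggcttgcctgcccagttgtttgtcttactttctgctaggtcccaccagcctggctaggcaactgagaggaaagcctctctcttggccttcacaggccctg
Cacna2d1, chr5:16047488-16047688: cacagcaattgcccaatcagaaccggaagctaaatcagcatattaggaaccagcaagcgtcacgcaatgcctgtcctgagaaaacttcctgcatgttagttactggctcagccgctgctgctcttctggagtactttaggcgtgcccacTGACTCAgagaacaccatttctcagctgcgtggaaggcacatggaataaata
Nek11, chr9:105302365-105302565: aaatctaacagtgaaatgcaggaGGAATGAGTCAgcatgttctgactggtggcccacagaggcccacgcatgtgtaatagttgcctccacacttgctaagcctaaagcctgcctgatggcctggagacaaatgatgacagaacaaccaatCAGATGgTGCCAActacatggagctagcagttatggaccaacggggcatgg
Nav3, chr10:110192179-110192379: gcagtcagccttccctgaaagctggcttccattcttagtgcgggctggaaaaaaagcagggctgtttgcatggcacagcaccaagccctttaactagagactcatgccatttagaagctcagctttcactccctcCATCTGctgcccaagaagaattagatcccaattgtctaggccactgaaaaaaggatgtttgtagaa
Nsmce2, chr15:59567593-59567793: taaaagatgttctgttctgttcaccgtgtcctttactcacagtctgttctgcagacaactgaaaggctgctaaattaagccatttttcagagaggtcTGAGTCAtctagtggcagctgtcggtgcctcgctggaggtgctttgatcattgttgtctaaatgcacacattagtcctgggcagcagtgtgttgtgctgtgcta
The Sorcs3 window held 2 AP-1 and 2 NFI matches, and the Fam19a2 window an overlapping SOX and RUNX match. The Gnaq window held a TWIST E-box and a TEAD match, and the Tenm3 window 3 TWIST E-boxes. Of the WT windows, Cacna2d1 held 1 AP-1 match and Nek11 held a TEAD match that runs into an AP-1 match, followed by a TWIST E-box and an NFI match. The Asap2 window held no match. The windows of the Syt1, Trps1, Shank2, Slc22a22, Sorbs2, Dennd1a, Hdac9 and Atp2b2 regions named below also held none and are not shown. The windows shown therefore do not give how common matches were in these sets. No 24-base word of the Fam19a2, Sorcs3, Gnaq, Tenm3, Asap2, Cacna2d1, Nav3 or Nsmce2 windows occurred a second time in the genome, while 16 of 178 words of the Nek11 window did.

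Members were close to other distal regions in size and composition. Their median width was 614 bp, against 613 bp for the 16209 intronic regions of shorter protein-coding genes and 609 bp for the 30677 intergenic regions. Median GC content of the summit windows was 47.3% in members and 48.8% in shorter-gene introns. The median distance to the nearest start site was 23.4 kb for members and 10.5 kb for shorter-gene introns. Of the members, 4090 (38.4%) had a peak in all 9 libraries, against 43.0% of shorter-gene intronic regions and 48.8% of all regions. At the other end, 896 members had a peak in 2 libraries only. AP-1 letters were found in 20.7% of member windows, 20.5% of shorter-gene intronic windows and 18.4% of all windows of the same length, and NFI letters in 19.9%, 17.7% and 16.8%.

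Most members sat far from the start of their host. Their median distance from the host's annotated start was 176 kb, and when each host body was cut into 4 equal parts these held 25.6%, 25.4%, 24.8% and 24.1% of them from start to end. In the longest transcript that contained the region, 2636 members (24.8%) lay in the first intron, and the median length of the intron they lay in was 85.9 kb. Members gained in both clones were in the first intron in 160 of 489 cases (32.7%) and in the last of the 4 parts of the host in 17.8%, and members lost in both in 27.1% and 26.3%.

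Host genes differed widely in how many members they held, with a median of 10 in hosts that had any. Syn3, a synapsin, had 46 members (10.4 per 100 kb), and Kalrn, a guanine nucleotide exchange factor that acts on the actin cytoskeleton, had 50 (8.27 per 100 kb). Pde4d, a cAMP phosphodiesterase of 1504 kb, had 68. Ank3, the spectrin-anchoring ankyrin G, had 43 members, and Lpp, a LIM protein of focal adhesions, and Nav2, a microtubule-binding neuron navigator, had 42 each. The 2 largest totals were in models that span other genes: Gm20388, which contains 71 other protein-coding genes, held 260 members, and Fgfr2 as drawn in this annotation contains 29 others and held 106. Gm37240, which contains 6 others, held 62. No member was found in 81 of the 953 genes.

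Density fell with host length and was higher where the host's own start was open. Hosts of 200 to 300 kb held 3.802 members per 100 kb, those of 300 to 500 kb 2.89 and those of 500 to 1000 kb 1.93. The 55 hosts over 1000 kb held 1.47. Among these 55, the models that span other genes were denser: Gm20388 held 5.86 per 100 kb, Fgfr2 3.58 and Gm37240 4.46. The 419 hosts with a peak within 1 kb of their annotated start in all 9 libraries held 4.30 members per 100 kb, and the 451 hosts with none held 1.36. Of the 81 hosts without a member, 76 had no peak at that start. The annotated start is only one of several promoters in some hosts, such as Ank3 and Nav2, where it had no peak.

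B10 opened more of these regions than WT did, and G7 slightly more. A peak was found in 7206, 7122 and 6943 members in WT 1 to 3, in 8195, 8685 and 8037 in B10 1 to 3, and in 7484, 7516 and 7276 in G7 1 to 3. Every library of either clone lay above every WT library. Since B10 also had more peaks in total, the share of members among all regions with a peak was compared. That share was 9.90% ± 0.21 in WT, 10.9% ± 0.16 in B10 and 10.4% ± 0.14 in G7 (SD, n = 3 libraries each). The difference from WT was 1.04 percentage points for B10 and 0.55 for G7, with p = 0.1 for each by a two-sided exact permutation test of 3 against 3 libraries, which cannot give a smaller value (adjusted p = 0.15 over 6 tests).

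A second share set long genes against other genes within introns. Of all intronic regions with a peak, long genes held 38.0% ± 0.25 in WT, 39.7% ± 0.16 in B10 and 38.3% ± 0.11 in G7 (SD, n = 3). The lowest B10 library was above the highest WT library (difference 1.74 percentage points, exact permutation p = 0.1, adjusted p = 0.15). The G7 libraries overlapped WT (difference 0.28 percentage points, exact permutation p = 0.2, adjusted p = 0.24). The libraries were thus fully separated from WT in B10 only, where the test stood at its smallest possible value. A shift towards long genes among intronic sites is neither shown nor excluded in G7. Whether the clones differ in this was not tested. When libraries with the same number were taken as pairs across lines, the difference from WT was positive in 3 of 3 pairs for both clones and both shares. There the exact sign-flip test cannot go below p = 0.25.

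**Figure D1:**
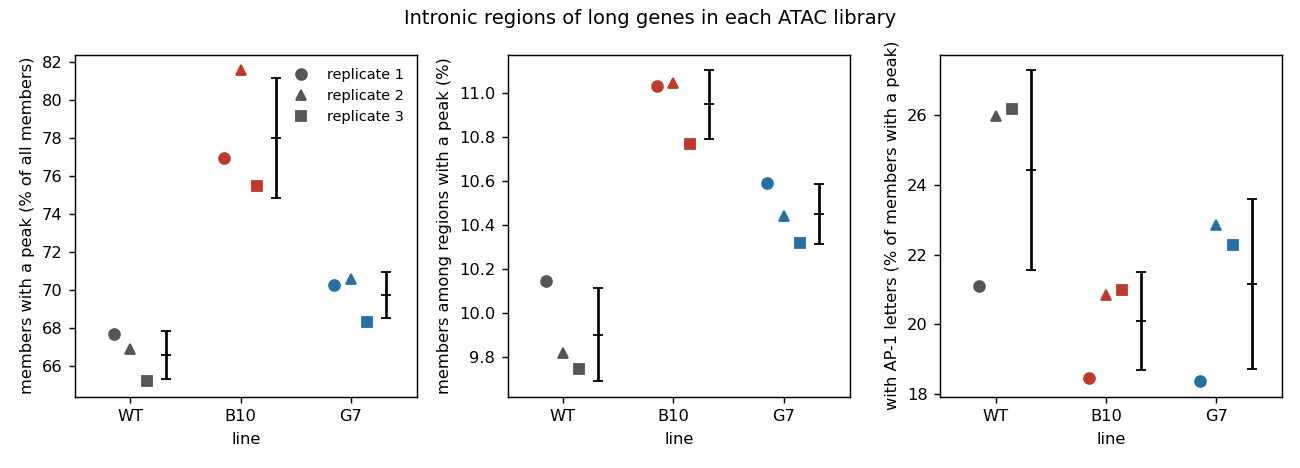
Members with a peak as a percentage of all 10648 members (left), members as a percentage of all regions with a peak (middle) and the percentage of members with a peak whose window held AP-1 letters (right), for each library of WT, B10 and G7. Symbols are libraries by replicate number and bars are the mean ± SD of 3; axes do not start at 0. In the first 2 panels every library of B10 and G7 lies above every WT library, and in the third replicate 1 is lowest in each line.

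Gained in a clone means a peak in 2 or 3 of the clone's libraries and in no WT library, and lost means a peak in 2 or 3 WT libraries and in none of the clone's. No peak means that none was listed at the q-value cutoff of 0.05, not that the site was closed. Members were gained in B10 in 1660 cases (15.6%), against 10.4% of all 95142 regions, and lost in 808 (7.59%), against 7.59%. In G7, 839 members (7.88%) were gained, against 5.61% of all regions, and 829 (7.79%) were lost, against 7.43%. In both clones alike, 489 members (4.59%) were gained, against 2.93%, and 468 (4.40%) were lost, against 4.37%. The share of members gained was 1.502 times that of all regions in B10, 1.41 times in G7 and 1.57 times in both clones, while the share lost was 0.9998 to 1.05 times that of all regions. Single libraries moved the counts: without WT replicate 1 there were 963 members gained in both clones and without G7 replicate 1 there were 317, and without WT replicate 2 or 3 there were 225 or 221 lost, but over all alternatives tried the share gained in both remained 1.48 to 1.63 times that of all regions.

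Gains also stood above those of the classes most like the members. Shorter-gene intronic regions were gained in both clones in 3.53% of cases (95% Wilson interval 3.26 to 3.82) and intergenic regions in 2.79% (2.61 to 2.98), against 4.59% of members (4.21 to 5.01). Losses in both clones were 4.22% in shorter-gene introns, 4.40% in members and 5.51% in intergenic regions. The intervals cover counting error over regions only, and neighbouring regions are not independent. With the same number of peaks taken from each library, 12.8% of members and 8.23% of all regions were gained in B10, and 4.44% and 2.75% in both clones.

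**Figure D2:**
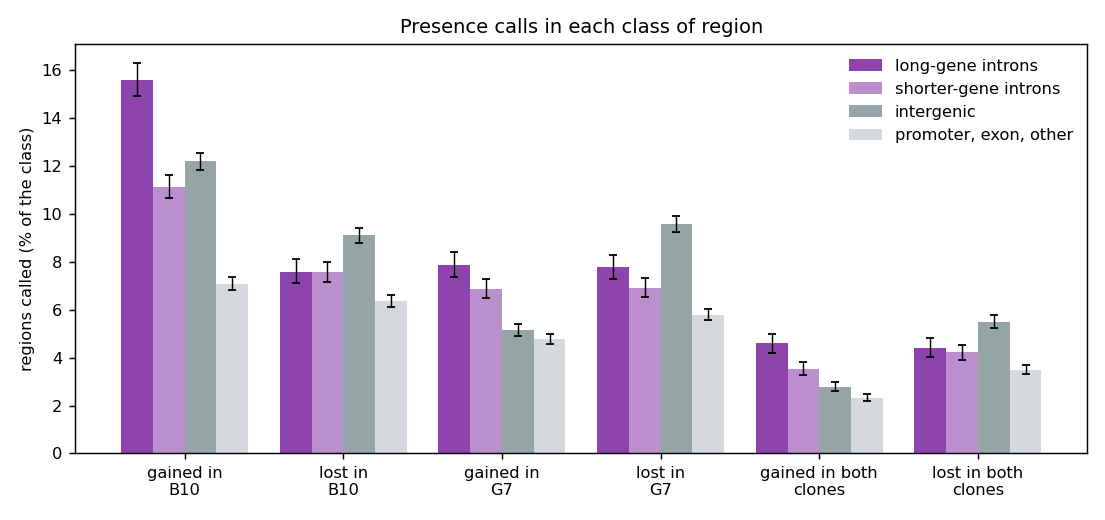
Percentage of regions gained or lost in B10, in G7 and in both clones, by class of region (bars; error bars are 95% Wilson intervals over regions). Long-gene introns have the tallest bar for each kind of gain (15.6%, 7.88% and 4.59%), and intergenic regions the tallest for each kind of loss.

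The share of members gained was highest in the longest hosts, and the shares gained and lost were both lowest in the shortest. In B10 it was 11.96% in hosts of 200 to 300 kb, 16.5% at 300 to 500 kb, 16.3% at 500 to 1000 kb and 23.4% over 1000 kb. For gains in both clones the 4 shares were 3.92%, 4.42%, 5.16% and 6.32%. For losses in both they were 3.55%, 4.42%, 5.54% and, over 1000 kb, 5% (57 of 1140 members in 51 hosts). Those 1140 members include the models that span other genes. Gm20388 held 260 of them (8 gained and 4 lost in both clones), Fgfr2 106 (1 and 2) and Gm37240 62 (7 and 5). The shares by length were not computed without these models. Over all regions, 10.4% were gained in B10, and 2.93% were gained and 4.37% lost in both clones. The share lost also varied with the state of the host's own start: members of hosts with a peak at the start in all 9 libraries were lost in both clones in 2.81% of cases and gained in 4.57%, while members of hosts with no peak there were lost in 7.82% and gained in 4.04%.

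**Figure D3:**
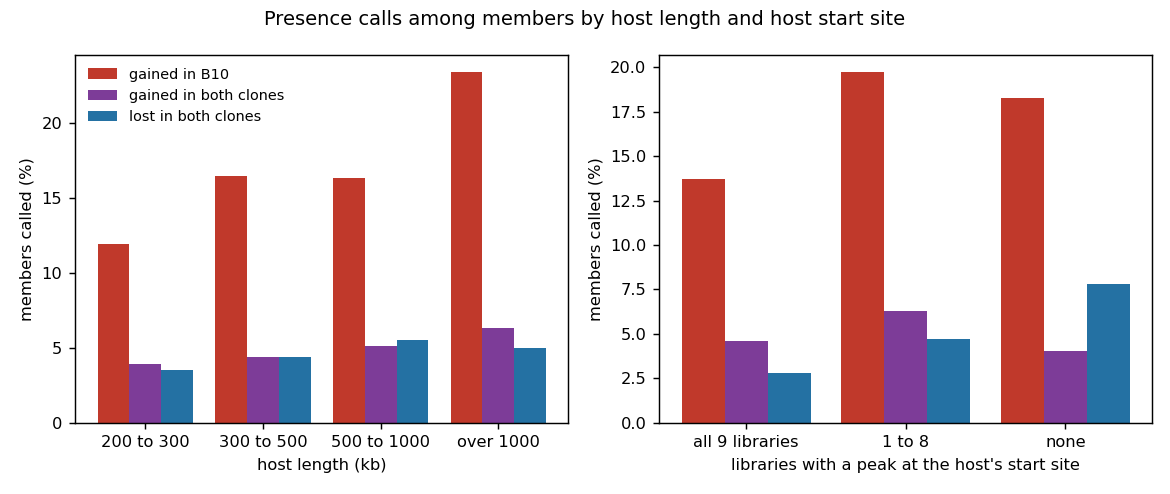
Percentage of members gained in B10, gained in both clones and lost in both clones, by host length (left) and by the number of libraries with a peak within 1 kb of the host's annotated start (right). Gains in B10 run from 11.96% in the shortest to 23.4% in the longest hosts, and losses in both clones from 2.81% in hosts with an open start to 7.82% in hosts without a peak there.

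Called members came in runs within a host. Of 488 gained members that had another member of the same host beside them, 108 (22.1%) stood next to a gained one, against 8.15% of all members, and 13 (2.66%) stood next to a lost one, against 6.90%. Of 451 lost members, 146 (32.4%) stood next to a lost one and 13 (2.88%) next to a gained one. The same shares were not computed for regions outside the members, so such runs are not shown to be particular to long genes. Of 118 hosts with 3 or more members called in both clones, 39 had gains only, 34 losses only and 45 had both. In the 437 hosts with 10 or more members, 82 had more members with a peak in every KO library than in any WT library and 26 had fewer. Every KO library also had more members with a peak in total than any WT library. The counts of hosts were not adjusted for these totals, and no share over other genes is set beside them. For these 437 hosts, the difference between KO and WT libraries in the share of members with a peak was computed in 2 ways. The first used the libraries numbered 1, and the other those numbered 2 and 3. These values had a Pearson correlation of 0.80 and a Spearman correlation of 0.74. The libraries share lines and are no independent replicates. Regions were kept when at least 2 of the 3 libraries of a line had a peak, so part of the agreement is fixed by that rule.

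The 5 hosts with the largest share gained had few or no WT peaks. Tenm3, a teneurin of neuronal adhesion at chr8:48227682-48843951, had 12 members. None of the 12 had a peak in WT 1, 2 or 3, while 9, 11 and 9 had one in B10 and 8, 9 and 7 in G7, and 7 were gained in both clones. Ctnna3, an alpha-catenin at chr10:63430098-65003667, had 19 members with 2, 4 and 4 peaks in WT, 15, 18 and 18 in B10 and 12, 12 and 13 in G7, and 10 were gained in both. Its 2 members with a peak in every library lay 112 kb and 153 kb from the start.

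Sorcs3, a sortilin-family sorting receptor at chr19:48206025-48805505, showed the same order, with 2, 3 and 3 of 11 members open in WT, 9, 11 and 10 in B10 and 6, 7 and 8 in G7. Fam19a2, which encodes a secreted chemokine-like protein, had 4, 4 and 5 of 15 members in WT, 14, 15 and 13 in B10 and 10, 12 and 11 in G7. All 3 members nearest its start had a peak in every library, and the gained ones lay beyond. Thsd7a, a membrane protein with thrombospondin repeats, had 2, 2 and 4 of 17 members in WT, 16, 15 and 15 in B10 and 9, 7 and 8 in G7, with 6 gained and 1 lost. In all 5 hosts every KO library lay above every WT library, and every B10 library was at or above the highest G7 library. The hosts were picked for their share gained, so the gap to WT is no separate result.

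The 5 hosts with the largest share lost showed the opposite. They were picked for that share, so here too the gap to WT is no separate result. Tnr, which encodes the matrix protein tenascin-R, at chr1:159523769-159931729, had 15, 16 and 16 of 17 members open in WT, 0, 3 and 2 in B10 and 6, 6 and 6 in G7, and 10 were lost in both clones. Asic2, an acid-sensing ion channel, had 12, 14 and 15 of 15 members in WT, 5, 5 and 3 in B10 and 4, 5 and 4 in G7, with 8 lost. Xkr6 had 8, 10 and 10 of 10 members in WT, 3, 5 and 3 in B10 and 3, 3 and 3 in G7, with 5 lost.

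Losses left some sites of these hosts open. Ptprn2, a receptor-type phosphatase of secretory granules, kept 4 to 6 of 12 members in the KO libraries against 8, 11 and 11 in WT. Kcnip1, a potassium channel interacting protein, had 7, 10 and 10 of 10 members open in WT, 5, 5 and 5 in B10 and 5, 4 and 3 in G7. No member of these 5 hosts was gained in either clone. Within 1 Mb on either side, the flanks of Tnr held 130 regions of any class with 7 gained and 8 lost in both clones. In the same order, Asic2 flanks held 126 with 2 and 11, and Xkr6 flanks 133 with 4 and 14. Ptprn2 flanks held 58 with 0 and 1, and Kcnip1 flanks 56 with 0 and 10. Among hosts picked for gains, Tenm3 flanks held 53 with 4 and 0, and Ctnna3 flanks 62 with 2 and 2. Sorcs3 flanks held 94 with 3 and 2, Fam19a2 flanks 58 with 12 and 2, and Thsd7a flanks 42 with 4 and 0. The shares to read these against are 2.93% gained and 4.37% lost, those of all regions. Whether flanks moved with their hosts was not tested.

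**Figure D4:**
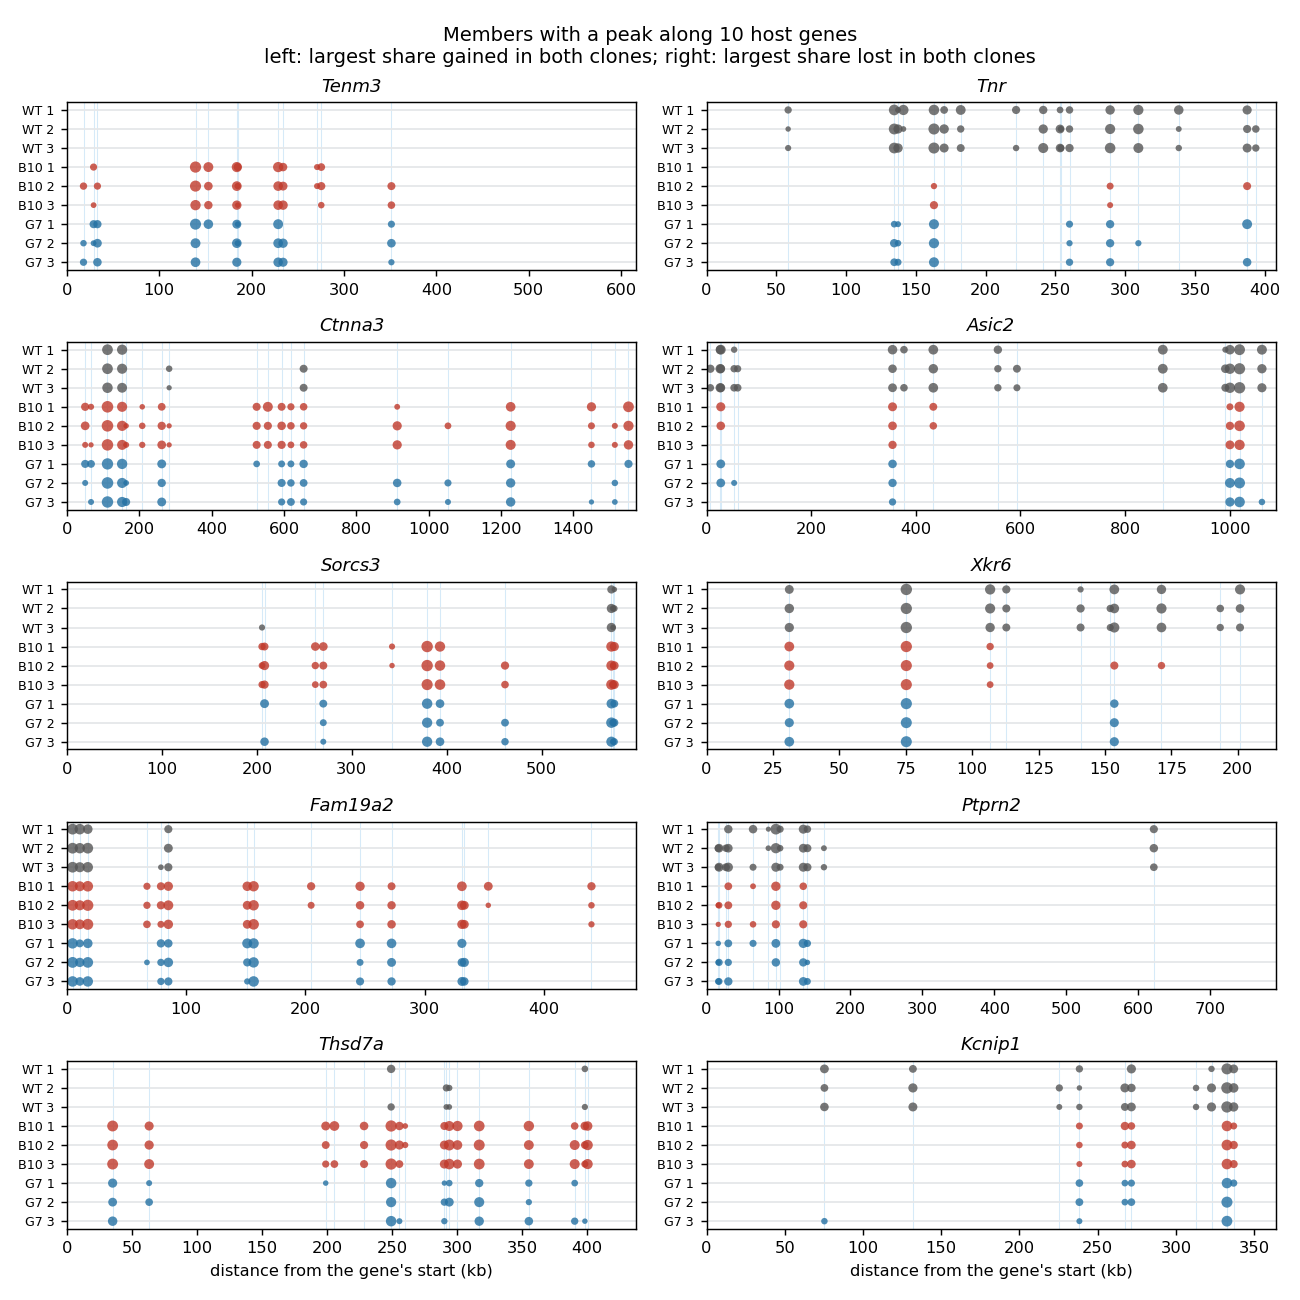
Members with a peak (dots) in each library along 10 host genes, by distance from the host's annotated start in kb; dot size follows the peak's rank within its library, and pale vertical lines mark all members of the host. In the left column dots are few in the WT rows (none for Tenm3), and in the right column they are densest in the WT rows (15 to 16 of 17 for Tnr).

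Some members had a listed peak in every KO library or in every WT library, and in none of the others. At 181 members all 6 KO libraries but no WT library had a peak (1.70%, against 1.07% of all regions), and at 171 members all 3 WT libraries but no KO library did (1.61%, against 1.63%). Fold enrichment is the height of a peak over the local background that the peak caller models. Among the first set, the region with the highest rank in its weakest library lay in intron 1 of Fam19a2 (chr10:123420179-123420863, 157 kb from the host's start), where fold enrichment was 17.4, 17.3 and 17.9 in B10 and 16.4, 17.2 and 16.6 in G7. Its lowest rank, 70.0, means that 70.0% of the peaks of that library were at or below it. In intron 4 of Sorcs3 (chr19:48584889-48585888) fold enrichment was 18.4, 19.6 and 16.8 in B10 and 13.7, 15.5 and 16.2 in G7. The others were in Gnaq (the alpha subunit of a Gq protein, chr19:16366135-16367215), Tenm3 (chr8:48704379-48705056), Syt1 (the calcium sensor of synaptic vesicles, chr10:108979548-108980620) and Zfhx3 (a homeodomain transcription factor, chr8:108649055-108649422).

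The regions with a peak in WT alone were of similar height. In intron 25 of Asap2, an Arf GTPase-activating protein, fold enrichment was 8.62, 9.76 and 10.1 in WT 1 to 3 (chr12:21264170-21264957). In intron 3 of Cacna2d1, an auxiliary subunit of voltage-gated calcium channels, it was 15.8, 16.2 and 17.5 (chr5:16047299-16048043). Trps1, a GATA-type repressor of skeletal development, had a GC-rich region (75.6%) in intron 1 with 8.995, 9.56 and 11.1 (chr15:50869301-50870403). The other 3 lay in Kirrel3 (chr9:34893832-34894634), Shank2 (chr7:144037938-144038806) and Nek11 (chr9:105302341-105302662).

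Height was tested where a peak was present in all 9 libraries, with limma on log2 fold enrichment over 46449 regions and a Benjamini-Hochberg adjusted p below 0.05. Of the 4090 members tested, 208 (5.09%) were stronger in B10, against 3.54% of all tested regions, and 132 (3.23%) were weaker, against 3.05%. In G7, 79 (1.93%) were stronger, against 1.55%, and 55 (1.34%) weaker, against 1.20%. Both clones shared 55 stronger members (1.34%, against 1.07%) and 23 weaker ones (0.56%, against 0.508%). With the replicate number as a block the counts rose to 471 stronger and 362 weaker in B10, 253 and 180 in G7, and 184 and 74 in both clones, where the shares over all regions were 9.35%, 7.51%, 4.83%, 3.72%, 3.30% and 1.78% in that order. The members had a higher share than all tested regions in each of these 12 comparisons, by 1.02 to 1.44 times. Single libraries changed this order: without WT replicate 2, 0.465% of members and 0.495% of all tested regions were stronger in both clones, and 0.122% and 0.144% weaker (19 and 5 members). Without G7 replicate 3 the shares were 0.465% and 0.383% stronger and 0.122% and 0.192% weaker, and without WT replicate 3 0.538% and 0.428% stronger and 0.171% and 0.142% weaker. The median difference over the members was 0.01 on the log2 scale in both clones, against 0.03 in B10 and 0.02 in G7 over all tested regions.

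The 6 members that were stronger in both clones by the most were in Stpg2, Nav3, Slc22a22, Pakap, Rora and Spidr. In intron 3 of Nav3, a neuron navigator (chr10:110191762-110192681), fold enrichment was 5.86, 4.07 and 5.09 in WT, 13.5, 13.5 and 13.98 in B10 and 11.5, 12.5 and 12.5 in G7. The groups did not overlap, though the region was picked for a large difference. The log2 difference was 1.48 ± 0.15 (SE) in B10 and 1.39 ± 0.15 in G7 (limma adjusted p = 0.0012 and 0.0032). In intron 2 of Rora, a nuclear receptor (chr9:69338725-69339893), WT had 4.56, 4.66 and 4.14, B10 9.33, 11.3 and 8.72, and G7 10.5, 10.7 and 8.48, a difference of 1.15 ± 0.15 and 1.24 ± 0.15. The Stpg2 region (chr3:139262138-139263043) rose most, by 1.78 ± 0.23 and 1.68 ± 0.23, from 4.23, 3.78 and 7.96 in WT. It was 60.5% repeat-masked, and 57.9% of the 24-base words of its summit window occurred elsewhere in the genome, so its reads may not be placed uniquely.

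The 6 members weaker in both clones by the most lay in Sorbs2, Dennd1a, Nsmce2, Hdac9, Atp2b2 and Gm20388. In intron 1 of Dennd1a, a Rab guanine nucleotide exchange factor (chr2:38263522-38264137), fold enrichment was 10.1, 16.6 and 15.3 in WT, 5.61, 5.53 and 5.18 in B10 and 4.07, 6.33 and 4.73 in G7, and fell by 1.31 ± 0.21 and by 1.37 ± 0.21 on the log2 scale (limma adjusted p = 0.0074 and 0.011). In intron 4 of Hdac9, a class IIa histone deacetylase (chr12:34498361-34499534), it was 12.4, 9.95 and 13.2 in WT, 4.67, 3.997 and 5.83 in B10 and 4.94, 5.12 and 6.31 in G7. In intron 3 of Atp2b2, a plasma membrane calcium pump (chr6:113852211-113852801), it was 20.9, 20.7 and 18.5 in WT, 11.8, 8.61 and 9.72 in B10 and 7.26, 4.82 and 7.88 in G7. In the Sorbs2 region (chr8:45709613-45710738) WT had 9.83, 9.91 and 8.90, and B10 had 5.90, 2.33 and 2.50, so that replicate 1 stood apart in the clone. None of these 6 overlapped between WT and KO libraries, but they were picked for a large difference, so this is no separate result.

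**Figure D5:**
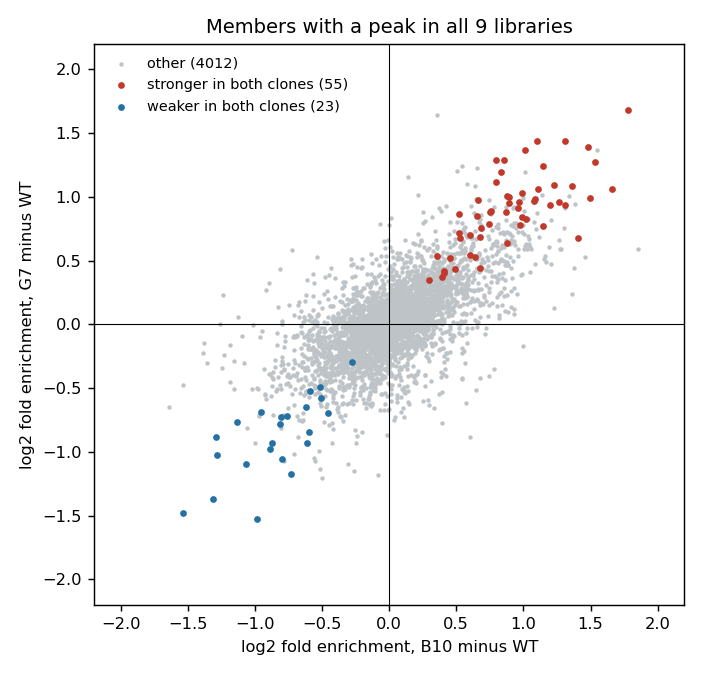
Difference in log2 fold enrichment from WT in B10 (x) and G7 (y) for the 4090 members with a peak in all 9 libraries. Red points are the 55 members stronger and blue points the 23 weaker in both clones (limma adjusted p below 0.05); both differences share the WT libraries.

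The highest members of all were in part sites of repeated sequence. Ranked by their weakest library, the first 3 of those with a peak in all 9 libraries lay in Chl1, Filip1l and Gphn, where 66.9%, 78.7% and 74.2% of the 24-base words of the summit window occurred more than once in the genome. Fold enrichment there was 41.1 to 45.2 in Chl1, 34.1 to 38.4 in Filip1l and 37.5 to 40.6 in Gphn, in every line alike. The next 3 lay in unique sequence in Oxr1 (19.1 to 21.6), Prkca (14.7 to 17.2) and Arid1b (17.9 to 19.7). None of the 6 differed from WT in either clone (limma adjusted p of 0.35 to 0.97).

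AP-1 letters went with loss. They were found in 155 of 468 members lost in both clones (33.1%), in 54 of 489 gained in both (11.0%) and in 20.7% of all members, and over all regions the shares were 28.5% of lost and 11.3% of gained. Of the 2207 members with AP-1 letters, 7.02% were lost and 2.45% gained in both clones, while of the 8441 without them 3.71% were lost and 5.15% gained. Among the tested members, the median log2 difference was -0.07 in B10 and -0.06 in G7 with AP-1 letters (n = 997) and 0.03 in both without (n = 3093). Stronger in B10 were 1.71% of those with the letters and 6.18% of those without, and weaker 3.51% and 3.14%.

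The same was measured per library. Of members with a peak, 21.1%, 26.0% and 26.2% held AP-1 letters in WT 1 to 3, 18.5%, 20.9% and 20.98% in B10 and 18.4%, 22.8% and 22.3% in G7. All B10 libraries lay below all WT libraries, by 4.32 percentage points on average (exact permutation p = 0.1, adjusted p = 0.15). G7 overlapped WT through the libraries numbered 1, which were lowest in every line, and was lower by 3.25 percentage points (exact permutation p = 0.3, adjusted p = 0.3). Within numbers, both clones were lower than WT in 3 of 3 pairs. SOX letters went the other way, in 10.2% of members gained in both clones, 4.49% of those lost and 6.02% of all, and over all regions in 8.07% of gained, 4.29% of lost and 5.38% of all. TEAD letters were in 19.2%, 16.2% and 18.8% of gained, lost and all members, and NFI letters in 18.8%, 14.3% and 19.9%. Over all regions NFI letters were in 19.8% of gained, 13.8% of lost and 16.8% of all. The other motifs lay between 8.76% and 19.9% in both sets of members, apart from C/EBP, which was in 7 members in all. A match says only that the letters are in the window.

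The hosts were then read by what their genes do, in lists that share some genes. The shares to read them against are those of all members, 4.59% gained and 4.40% lost in both clones, and, of tested members, 5.09% stronger and 3.23% weaker in B10 and 1.93% and 1.34% in G7. No list was tested against the rest, and hosts picked above for their share gained or lost also count in these lists. The neuronal adhesion and synaptic list had 72 host genes with 773 members, at 1.27 per 100 kb, and it moved in both directions: 50 members (6.47%) were gained in both clones and 74 (9.57%) lost. In B10, whatever the call in G7, 194 (25.1%) were gained and 105 (13.6%) lost, against 15.6% and 7.59% of all members. Its 3 hosts with most members were Syn3, Celf2 and Csmd3. Csmd3, a large transmembrane protein with CUB and sushi repeats, had 9, 11 and 9 of 37 members open in WT, 23, 25 and 25 in B10 and 26, 29 and 22 in G7, and 6 were gained in both clones. Celf2, an RNA-binding splicing regulator, gained 10 of 40 in B10 and 1 in G7. Of 200 tested members of the list, 9 were stronger and 7 weaker in B10, and 1 and 8 in G7.

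Ion channel and neurotransmitter receptor genes were alike in density and in the share lost in both clones. Their share gained in both clones was near that of all members. Their 54 hosts had 356 members at 1.296 per 100 kb, and both clones gained 17 (4.78%) and lost 33 (9.27%) of them. Grm7, a metabotropic glutamate receptor, had 4, 6 and 6 of 29 members open in WT, 26, 26 and 23 in B10 and 17, 17 and 17 in G7, with 9 gained in both and none lost. Slc24a3, a sodium-calcium-potassium exchanger, had 1 gained and 1 lost of 28, and Itpr2, an inositol trisphosphate receptor, 1 gained and none lost of 21.

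The 16 hosts among regulators of the mesenchymal lineage held 296 members at 4.30 per 100 kb, and both clones gained 14 (4.73%) and lost 4 (1.35%) of them. Sox6, a chondrogenic SOX factor, had 29, 25 and 24 of 42 members open in WT, 36, 38 and 34 in B10 and 30, 29 and 29 in G7, and 1 was gained in both. Zbtb20, a zinc finger repressor, had 26, 23 and 22 of 37 in WT, 35, 32 and 28 in B10 and 35, 29 and 31 in G7, with 3 gained. Sox5, the partner of Sox6 in cartilage, had 2 gained and 1 lost of 33. Among 127 tested members of the list, 5 were stronger and 3 weaker in B10, and 4 and 1 in G7.

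Other transcription factors and chromatin regulators (41 hosts, 598 members) had 31 members (5.18%) gained and 15 (2.51%) lost in both clones. Zfhx3 accounted for 8 of the gains, with 21, 23 and 22 of 42 members open in WT, 34, 37 and 35 in B10 and 34, 36 and 31 in G7. Mecom, which encodes the EVI1 and PRDM3 proteins, had 1 gained and 2 lost of 33, and Glis3, a zinc finger activator, had none of 30 called in both clones.

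Extracellular matrix and cell adhesion genes (48 hosts, 629 members) had 30 (4.77%) gained and 35 (5.56%) lost in both clones. Tnr, picked above for its share lost, held 10 of these 35 losses in 17 members. Lpp had 27, 28 and 29 of 42 members open in WT, 36, 34 and 37 in B10 and 33, 33 and 30 in G7, with 4 gained and none lost. Ext1, a heparan sulfate polymerase, had 14, 17 and 16 of 31 in WT and 18 to 25 in the KO libraries, with 2 gained, and Gpc6, a glypican, had 2 gained and 1 lost of 38.

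Cytoskeletal regulators (62 hosts, 1064 members, 4.15 per 100 kb) had 58 (5.45%) gained and 35 (3.29%) lost. Ctnna3, picked above for its share gained, held 10 of these 58 gains in 19 members. Kalrn, with 38 to 44 of 50 members open in every library, had none gained and 1 lost, Ank3 had 1 of each among 43, and Nav2 none gained and 1 lost of 42. Signalling genes (80 hosts, 985 members) had 49 (4.97%) gained and 26 (2.64%) lost. Pde4d had 6 gained and 1 lost of 68, Prkce, protein kinase C epsilon, 2 and 1 of 39, and Prkca, a conventional protein kinase C, none of 41.

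Genes at common fragile sites, where replication stress breaks chromosomes, formed the last list. Its 21 hosts held 412 members, and both clones gained 29 (7.04%) and lost 13 (3.16%) of them. Ctnna3, picked above for its share gained, held 10 of these 29 gains in 19 members. Macrod2, an ADP-ribose hydrolase of 1998 kb, split the clones: 23, 24 and 20 of 33 members were open in WT, 29, 31 and 28 in B10 and 3, 7 and 8 in G7, and 13 were lost in G7 against 1 in B10.

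Calls were spread over all 19 chromosomes at unequal shares. Members gained in both clones made up 1.85% on chromosome 7 and 10.0% on chromosome 10, and members lost in both 1.75% on chromosome 13 and 9.83% on chromosome 9. The median log2 difference of the tested regions that were no members was 0.01 to 0.07 over chromosomes in B10 and 0.00 to 0.05 in G7, and the part of chromosome-wide differences in these shares was not tested.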

How the data were processed

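ATAC-seq libraries of C3H/10T1/2 MPCs (WT, B10 and G7, 3 each, grouped by sample titles) were analysed from 9 peak lists. According to the methods of the study, the authors checked read quality with Rfastp, aligned them to mm10 with Rsubread and called peaks per library with MACS2 (version not given in the sources used here) in paired-end mode. As deposited, each peak carries a fold enrichment (a ratio of pileup to local background) and a −log10 q-value, both made by the authors with MACS2, and the lists end at q = 0.05. No read counts were used, so no count model was fitted. No blacklist was applied here.

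Overlapping or touching peaks were merged into 132893 regions, and each region took the highest peak per library. Rank is the percentile of a peak's −log10 q within its library. Where a region lay in several hosts (124 members) the shortest was used. limma 3.58.1 (R 4.3.3) was fitted to median-centred log2 fold enrichment with an intensity trend, over all regions with a peak in all 9 libraries, and was tested on simulated data. Shares were compared by exact permutation over libraries (Python 3.11.15, scipy 1.17.1). Libraries with the same number deviated together from their line means in each of the 9 pairs (r = 0.24 to 0.59). Libraries numbered 2 and 3 also did so across these numbers (r = 0.18 to 0.25), so the pairing within 2 and within 3 is less clear. Numbers were taken to pair libraries, and blocked results are given beside the unblocked. Motifs were searched within 100 bp of the summit.

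Named hosts were the 10 with most members, the 3 with most in each gene list, and, among hosts with at least 10 members, the 5 with the largest share gained and lost in both clones. Named regions were, in each set, at most 6 with 1 per host. One named host is not reported here. Members and gene lists were chosen with earlier results of these data known. Alternatives were equal peak numbers, −log10 q of at least 5, peaks covering at least 0.5 of a region, the replicate block, a pseudocount of 1, quantile normalization, centring by chromosome, no lowest 25% by height, absent peaks set to 1, replicates 2 and 3 only, and each library left out. Leaving out host models that contain 2 or more other coding genes, and sign flips within replicate numbers, were added after the data were seen.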

Additional observations from a re-analysis of the deposited data

Results flagged for a closer look

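The clones differed from each other at some members. By limma on the difference between the clones (adjusted p below 0.05), 27 of the 4090 tested members (0.66%) were higher in B10 than in G7 and 41 (1.002%) were lower, against 0.693% and 0.973% of all tested regions. In an intron of Ak5, an adenylate kinase (chr3:152586291-152587445), fold enrichment was 8.999, 9.41 and 8.99 in WT, 5.29, 5.23 and 4.86 in B10 and 10.3, 11.5 and 13.1 in G7, and B10 minus G7 fell by 1.25 ± 0.13 (SE) on the log2 scale (limma adjusted p = 0.0022). In Ankfn1 (chr11:89677041-89677851) it was 6.28, 5.11 and 5.24 in WT, 8.79, 9.49 and 7.44 in B10 and 3.93, 3.45 and 3.52 in G7, a difference of 1.16 ± 0.15 (limma adjusted p = 0.0062).

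Among the 437 hosts with 10 or more members, 10 had more members with a peak in every B10 library and fewer in every G7 library than in any WT library, and 0 had the reverse. This difference was not tested for single hosts. Every B10 library also had more members with a peak in total than any G7 library. The counts were not adjusted for these totals. Kif6, a kinesin, had 5 of 10 members open in each WT library, 10, 10 and 9 in B10 and 0 in each G7 library. Lrrc4c, a netrin-G ligand, had 2 of 11 in each WT library, 11, 11 and 8 in B10 and 0, 1 and 1 in G7. Slc8a1, a sodium-calcium exchanger, had 5 of 13 in each WT library, 11, 12 and 12 in B10 and 2, 2 and 1 in G7. The others were Agmo, Gpc5, Macrod2, Cacna1c, Rgs7, Adamts2 and Astn2.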

How the results depend on the processing

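Presence calls kept their counts within 1.5 times under equal peak numbers, −log10 q of at least 5, peaks covering at least 0.5 of a region, replicates 2 and 3 only, and without host models that contain 2 or more coding genes. Leaving out each library in turn gave 1000 to 2477 members gained and 396 to 1029 lost in B10, 486 to 1423 gained and 423 to 1079 lost in G7, and 317 to 963 gained and 221 to 538 lost in both clones. The limma counts moved more. In the order stronger and weaker in B10, stronger and weaker in G7, stronger and weaker in both clones, they were 471, 362, 253, 180, 184 and 74 with the replicate block, 344, 260, 175, 94, 130 and 41 with replicates 2 and 3 only, and 1030, 525, 422, 381, 268 and 233 over all 10648 members with absent peaks set to 1. Without the lowest 25% of regions by height, which leaves fewer regions to test, they were 118, 86, 47 and 32 for stronger and weaker in B10, stronger in G7 and stronger in both, and 14 for weaker in both. The members' share of weaker calls in both clones fell below that of all tested regions under quantile normalization (0.562% and 0.568%) and with absent peaks set to 1 (2.19% and 2.25%). Leaving out each library gave 79 to 306, 49 to 154, 24 to 164, 14 to 54, 19 to 132 and 5 to 21. Among these, the counts were highest without WT replicate 1, apart from those of members lost, and the cause was not tested. The 3 shares kept their direction in every alternative for both clones, from 0.96 to 1.16 percentage points for the member share in B10 as libraries were left out and from -4.91 to -1.86 for the AP-1 share in G7. Under the replicate block these differences are the same by construction. Among named regions, 38 refits lost the call, 334 kept it and none changed sign, and among the named hosts' counts of gained or lost members 15 recounts moved by over 1.5 times and 115 did not. Read depth is unknown, so sites near the q-value cutoff may be missed in any library.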

Other observations

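Of the 81 host genes without a member, the longest were Sgcz (1139 kb, a sarcoglycan), Dab1 (1125 kb, a reelin adaptor), Ctnna2 (1098 kb, neuronal alpha-catenin), Erbb4 (1076 kb, a neuregulin receptor) and Cntnap5a (903 kb), named here after their values were seen. None had a peak within 1 kb of its annotated start in any library. Their flanks differed: within 1 Mb on either side there were 83 regions around Dab1 and 55 around Sgcz, but 3 around Ctnna2 and 2 around Cntnap5a.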
